A study of Mus musculus with 2 samples.

Results

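The integrins described here are the 10 genes Itgal, Itgb2, Itga4, Itgb1, Itgb7, Itgae, Itgav, Itgb3, Itga6 and Itga2, whose products include the main integrin subunits of mouse T cells. All 19 probe sets annotated with exactly 1 of these symbols were taken, out of 18003 probe sets with exactly 1 symbol and 22716 on the array, and all 10 genes were measured. The study hybridised 2 microarrays of CD4+ T cells, an untreated one and one whose cells were cultured with IL-27, a cytokine of the IL-12 family, as recombinant mouse protein at 25 ng/ml. Both began as naive cells of spleen and lymph node from female C57BL/6J mice, whose number is not stated, and were activated for 60 h on antibodies to CD3 and CD28, so T cell receptor and CD28 stimulation is common to both groups. The comparison was set up to screen for transcription factors that IL-27 induces. With 1 array per group there was no replicate, no test and no standard error, and a difference between the arrays cannot be told apart from variation between cultures. In cultures of many cells, fewer cells carrying a transcript and less of it per cell cannot be told apart either.

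Integrins are receptors made of 1 alpha and 1 beta chain that bind counter-receptors on other cells or proteins of the extracellular matrix. They are held in a low-affinity state until signals from the T cell receptor or chemokine receptors, acting through talin, kindlin and the GTPase Rap1, switch them on. Itgal and Itgb2 encode LFA-1, which binds ICAMs during contact with antigen-presenting cells and arrest on endothelium. Itga4 pairs with Itgb1 or Itgb7 to bind VCAM-1 or the gut addressin MAdCAM-1, and Itgae pairs with Itgb7 to bind E-cadherin on epithelium. Itga6 with Itgb1 forms a laminin receptor, Itga2 with Itgb1 a collagen receptor, and Itgav with Itgb3 binds vitronectin and related ligands.

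Itga6 and Itgb1, which together form a laminin receptor, stood higher on the array labelled IL-27-treated by each of their bright probe sets. These lay between 1.73-fold and 2.11-fold higher. The chains of LFA-1, the alpha chain Itgav and the beta chain Itgb7 lay slightly lower there, all within 1.32-fold. Itga4 was close to background, and Itgae, Itgb3 and Itga2 were below background on both arrays.

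Itgb1 and Itgb7 compete for the same alpha chain, Itga4, and their differences had opposite signs. The promoter windows of these 3 genes are therefore shown, from 250 bases before to 50 bases after a transcript start, as given by RefSeq on GRCm38.p6. Windows were available for only 5 of the 10 genes, and Itga6 was not among them. The choice of these 3 was made after the signs were seen. They lie at chr8:128685404-128685703 on the plus strand for Itgb1, chr15:102231886-102232185 on the minus strand for Itgb7 and chr2:79255176-79255475 on the plus strand for Itga4. Capitals mark matches, on either strand, to the GC box GGGCGG or the RUNX motif TGTGGT.
Itgb1: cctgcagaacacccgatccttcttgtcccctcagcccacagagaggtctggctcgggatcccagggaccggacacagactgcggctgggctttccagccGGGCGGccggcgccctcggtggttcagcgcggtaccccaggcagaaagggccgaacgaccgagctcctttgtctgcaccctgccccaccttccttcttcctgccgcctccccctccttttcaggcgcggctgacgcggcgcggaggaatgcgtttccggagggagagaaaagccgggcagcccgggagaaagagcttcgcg
Itgb7: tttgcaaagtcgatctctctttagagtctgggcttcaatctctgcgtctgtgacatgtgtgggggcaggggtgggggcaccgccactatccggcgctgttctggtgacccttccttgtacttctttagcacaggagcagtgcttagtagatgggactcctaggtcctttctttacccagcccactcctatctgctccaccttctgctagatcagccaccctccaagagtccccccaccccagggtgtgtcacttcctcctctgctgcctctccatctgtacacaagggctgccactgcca
Itga4: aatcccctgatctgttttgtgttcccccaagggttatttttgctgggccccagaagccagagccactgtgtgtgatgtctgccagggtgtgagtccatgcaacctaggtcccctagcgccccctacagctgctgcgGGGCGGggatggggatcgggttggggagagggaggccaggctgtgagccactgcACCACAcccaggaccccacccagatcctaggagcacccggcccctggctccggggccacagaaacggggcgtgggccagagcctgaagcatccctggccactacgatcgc
The Itgb1 window held 1 GC box, at position -151 from the start, and the Itga4 window held 1 GC box at position -114 and 1 RUNX motif at position -60. The Itgb7 window held no match to either. Neither the STAT motif TTCNNNGAA nor the AP-1 motif TGANTCA nor the ETS motif CGGAAG was found in these 3 windows. Among all 32851 RefSeq windows of the same length, 35.7% held the GC box, 16.8% the RUNX motif, 8.3% the STAT motif, 7.81% the AP-1 motif and 16.9% the ETS motif. A match to these letters is not evidence of binding, and the data include no measurement at these promoters.

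A level is given as the deposited intensity, on a linear scale, and a difference is the log2 level on the array labelled IL-27-treated minus that on the array labelled untreated. Levels of different probe sets are not compared, because probes differ in affinity. A probe set counted as above background when it reached an intensity of 29.7 on at least 1 array, which is the 95th percentile of genes specific to other tissues. Of the 19 integrin probe sets, 9 were above background, 8 of them on both arrays, and they represented 7 of the 10 genes. The other 10 ranged from 8.39 to 22.5, and no direction is read from them.

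Values at least 2-fold apart were found for 1 of the 9 probe sets, a probe set of Itgb1 that was higher on the array labelled IL-27-treated. The background is 1.35% of the 9590 probe sets above background lying 2-fold or more higher and 2.64% 2-fold or more lower. When each gene was read by its brightest probe set, 0 of the 7 genes above background were 2-fold apart in either direction, against 1.55% higher and 2.77% lower of 6637 genes. Of the 7 genes, 3 had a positive and 4 a negative difference, with a median of -0.15 against 0.02 for all genes above background. These 7 include Itga4, which reached background only on the array where it was brighter, so its sign was fixed by the filter. Of the 6 genes above background on both arrays, Itgb1 and Itga6 differed by 0.79 and 0.89 and the other 4 by -0.40 to -0.15, as the plot of integrin genes beside genes of integrin function shows.

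**Figure D1:**
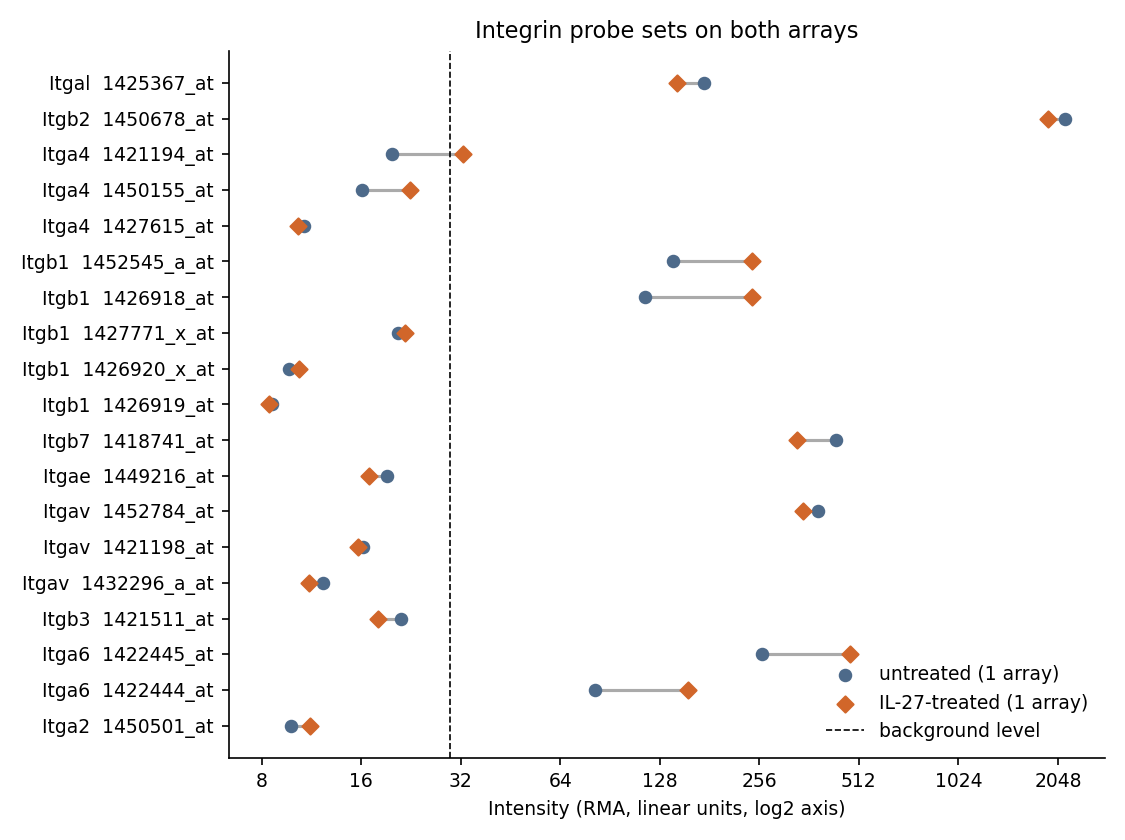
Intensity of each of the 19 integrin probe sets on the untreated array (circles) and the IL-27-treated array (diamonds), on a log2 axis, with the background level of 29.7 as a dashed line. Both bright probe sets of Itgb1 and both of Itga6 lie to the right on the IL-27-treated array, and the probe sets of Itgal, Itgb2, Itgb7 and the bright one of Itgav lie slightly to the left.

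Itga6, the laminin-binding alpha chain also known as CD49f, was read by 2 probe sets. The first, 1422445_at, had an intensity of 260.4 on the untreated array and 482.6 on the IL-27-treated array, a difference of 0.89 or 1.85-fold. The second, 1422444_at, had 81.5 and 155.4, a difference of 0.93 or 1.91-fold. Both were thus higher in the IL-27-treated culture and differed from each other by 0.04, but both are annotated with the same source sequence. For comparison, among 2123 genes with several probe sets above background, the differences of the 2 brightest lay a median of 0.16 apart, and for 5% of genes more than 0.54 apart. That gap measures error between probes only, not between cultures. A difference as high as those of Itga6 was reached by 1.81% and 1.60% of the probe sets above background.

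Itgb1, the beta chain CD29 shared by the laminin, collagen, fibronectin and VCAM-1 receptors of T cells, was read by 5 probe sets. Probe set 1452545_a_at had an intensity of 140.4 untreated and 243.0 IL-27-treated, a difference of 0.79 or 1.73-fold. Probe set 1426918_at had 115.3 and 242.8, a difference of 1.07 or 2.11-fold. Both were higher in the IL-27-treated culture, and 2.47% and 1.13% of probe sets above background were as high or higher. They differed from each other by 0.28, and only the latter exceeded 2-fold. The remaining 3 probe sets of Itgb1 were below background on both arrays, at intensities of at most 21.8, so 3 of the 5 carried no information on this gene's direction. Each of these 3 is annotated with the same source sequence as a bright probe set of Itgb1. Itgb1 and Itga6 had similar differences, with gaps of -0.10 and 0.18 between the Itgb1 probe sets and the brighter Itga6 probe set.

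Itgb7, the beta chain of the gut-homing receptor formed with Itga4 and of the E-cadherin receptor formed with Itgae, had an intensity of 437.5 untreated and 332.1 IL-27-treated. Its difference of -0.40, or 1.32-fold lower, was reached or passed by 13.4% of probe sets above background. The Itgb1 probe sets exceeded Itgb7 in their difference by 1.19 and 1.47 on the log2 scale, the widest contrast between beta chains here.

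The common partner Itga4, or CD49d, was read by 3 dim probe sets. Probe set 1421194_at had an intensity of 19.8 untreated and 32.6 IL-27-treated, a measured difference of 0.72. Since the untreated value was below background, it was at least 1.10-fold higher on the array labelled IL-27-treated. Probe set 1450155_at had 16.1 and 22.5, and probe set 1427615_at had 10.8 and 10.3, all below background. The array therefore gives little information on the alpha chain that both Itgb1 and Itgb7 use.

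Itgae, the alpha chain CD103 of T cells in epithelia, was below background on both arrays, at 19.2 untreated and 16.9 IL-27-treated. Transforming growth factor beta is known to induce Itgae, and genes of that pathway were therefore read beside it. Of 11 above background among 15 measured, 1 was higher by 2-fold or more and 1 lower, the median being -0.08, against 4.32% of all genes above background in either direction. The receptor gene Tgfbr1 had intensities of 93.2 and 228.5, or 2.45-fold higher on the array labelled IL-27-treated, by 1 of its 3 probe sets, and the others were below background. The ligand gene Tgfb3 stood at 320.6 untreated and below background IL-27-treated, at least 10.8-fold lower, so its sign was likewise fixed by the filter. Skil, which encodes a repressor of the pathway's Smad proteins, differed by 0.85, and the ligand gene Tgfb1 by -0.37. Runx3, a factor known to act on Itgae in CD8+ T cells, had 34.0 and 30.3, just above background.

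LFA-1 was read by 1 probe set for each chain. Its alpha chain Itgal, or CD11a, had an intensity of 173.6 untreated and 144.7 IL-27-treated, a difference of -0.26 or 1.20-fold lower. Its beta chain Itgb2, or CD18, had 2151 and 1916, a difference of -0.17 or 1.12-fold lower. Differences at least as low were found for 20.7% and 28.2% of probe sets above background. Both chains thus lay a little lower in the IL-27-treated culture, within the range of many genes. The other alpha chains of Itgb2 that were measured, Itgam and Itgax of myeloid cells, were below background on both arrays.

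Itgav, the alpha chain CD51 of vitronectin receptors, had an intensity of 385.4 untreated and 346.9 IL-27-treated by its bright probe set 1452784_at, a difference of -0.15 or 1.11-fold lower. Its other 2 probe sets were below background, at no more than 16.2. Not every possible beta partner of Itgav was read. Of those that were, Itgb3 was below background at 21.1 and 18.0, Itgb5 at 15.6 and 14.9 and Itgb6 at 10.2 and 10.0. Itgb1 was above it. Itga2, the collagen-binding chain CD49b, was likewise below background at 9.83 and 11.2. Itgb3 and Itga2b together make the platelet fibrinogen receptor. All 8 genes measured of the platelet and erythroid marker list, Itga2b included, were also below background, at no more than 21.0. That list is not complete. The globin gene Hbb-b2, outside it, had a probe set above background, with a mean log2 intensity of 5.77 and a difference of 0.43.

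**Figure D2:**
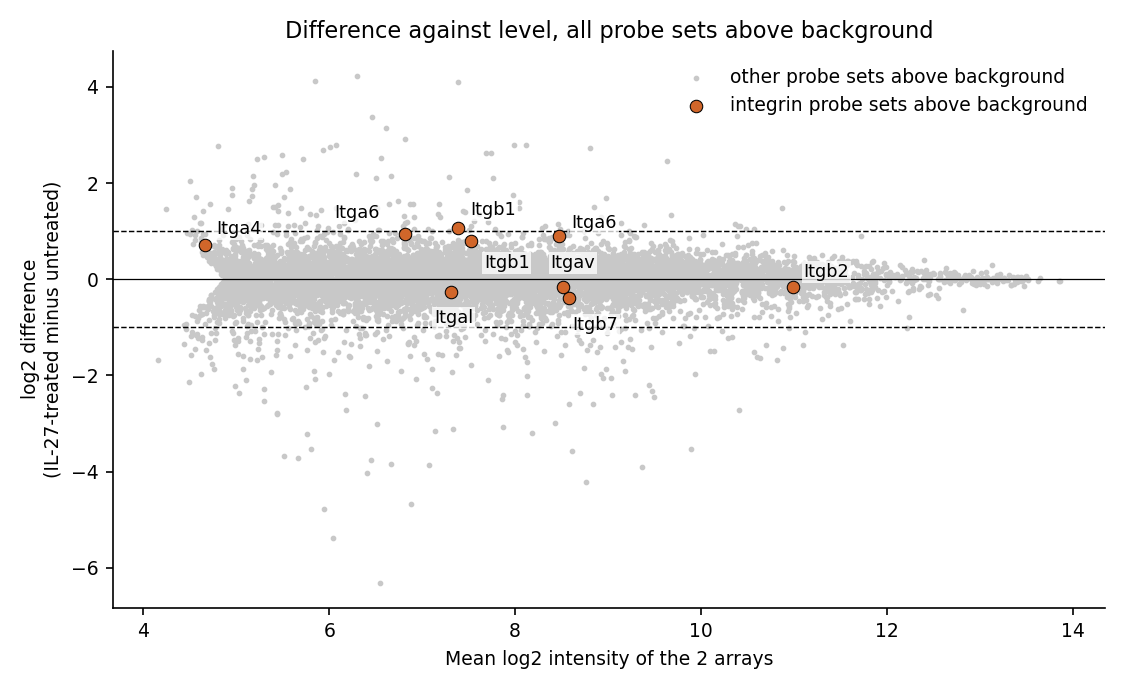
Log2 difference (IL-27-treated minus untreated) against the mean log2 intensity of the 2 arrays for the probe sets above background, with the 9 integrin probe sets in orange and dashed lines at 2-fold. The 4 probe sets of Itga6 and Itgb1 lie near the upper line, and 1 of them, of Itgb1, is beyond it.

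Among the other integrin genes, 2 of 11 measured were above background, both on the untreated array alone, so that the filter fixed their signs. Itga7, a laminin-binding alpha chain of Itgb1 best known from muscle, had an intensity of 94.9 untreated and was below background at 16.4 IL-27-treated, at least 3.20-fold lower by its 1 probe set. Itga3, another laminin-binding partner of Itgb1, had 34.7 and 22.9 by its brightest probe set, at least 1.17-fold lower, and its other 2 probe sets were below background. The remaining 9 genes did not exceed an intensity of 27.9.

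Genes of integrin activation, the inside-out pathway, were mostly close to equal. Of 17 above background among 20 measured, 1 was 2-fold or more lower and 0 were 2-fold or more higher, with a median of -0.09. Over all genes above background those shares are 2.77% and 1.55%, so a count of 1 is near the background. The lower gene was Fermt3, which encodes kindlin-3, the haematopoietic kindlin that binds integrin beta tails. Its intensity was 723.4 untreated and 359.0 IL-27-treated, 2.02-fold lower. Its second probe set, annotated with the same source sequence, gave 2.03-fold lower, from 638.4 and 314.1. Skap2, an adaptor in integrin signalling, had 470.2 and 238.3, or 1.97-fold lower by 1 probe set. Vav1, a signalling protein downstream of the T cell receptor, differed by -0.50 and Rasgrp2, an activator of Rap1, by 0.41. Talin, encoded by Tln1, which links beta tails to actin, had intensities of 464.9 and 404.1 and was named after its values were seen.

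Genes of the adhesion complex, which couples bound integrins to the actin cytoskeleton, were all within 2-fold, where 4.32% of all genes above background were not, so a count of 0 is near the background. Of 20 above background among 24 measured, 6 had a positive and 14 a negative difference, with a median of -0.16. The members furthest apart were Zyx, encoding zyxin, at -0.62, Vcl, encoding vinculin, at 0.56, the actin regulator Vasp at -0.56 and the crosslinker Actn1 at 0.50. For Actn1 its 3 probe sets had differences of 0.50, 0.51 and 0.57. The dimmer probe sets of Zyx and Vcl were below background.

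Membrane partners and co-receptors included 2 genes at 2-fold or more higher, and 0 at 2-fold or more lower, among 12 above background and 14 measured, with a median of 0.03. Over all genes above background 1.55% were as much higher and 2.77% as much lower. Plaur, the urokinase receptor, which binds integrins at the cell surface, was below background untreated at 21.1 and reached 96.2 IL-27-treated, at least 3.24-fold higher. It passed background only on the array where it was brighter, so its sign was fixed by the filter. Cd44, a hyaluronan receptor of activated and memory T cells, had 374.6 and 841.8, or 2.25-fold higher, and its dimmer probe set gave 1.86-fold. The tetraspanin gene Cd37 and basigin, encoded by Bsg, differed by -0.59 and -0.57.

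Integrin ligands were mostly below background, with 3 of 20 measured genes above it and 0 of them 2-fold apart, a number too small to set against the 4.32% of all genes. Icam1, a ligand of LFA-1, had intensities of 153.9 and 149.0 and Icam2, another, 86.6 and 108.4. Lamc1, the gamma chain of most laminins, had 62.9 untreated and 33.7 IL-27-treated, or 1.86-fold lower by its brighter probe set, while the dimmer one was below background. Vcam1, Madcam1 and Cdh1, whose products are bound by the Itga4 and Itgae receptors, were below background on both arrays and were named after their values were seen.

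**Figure D3:**
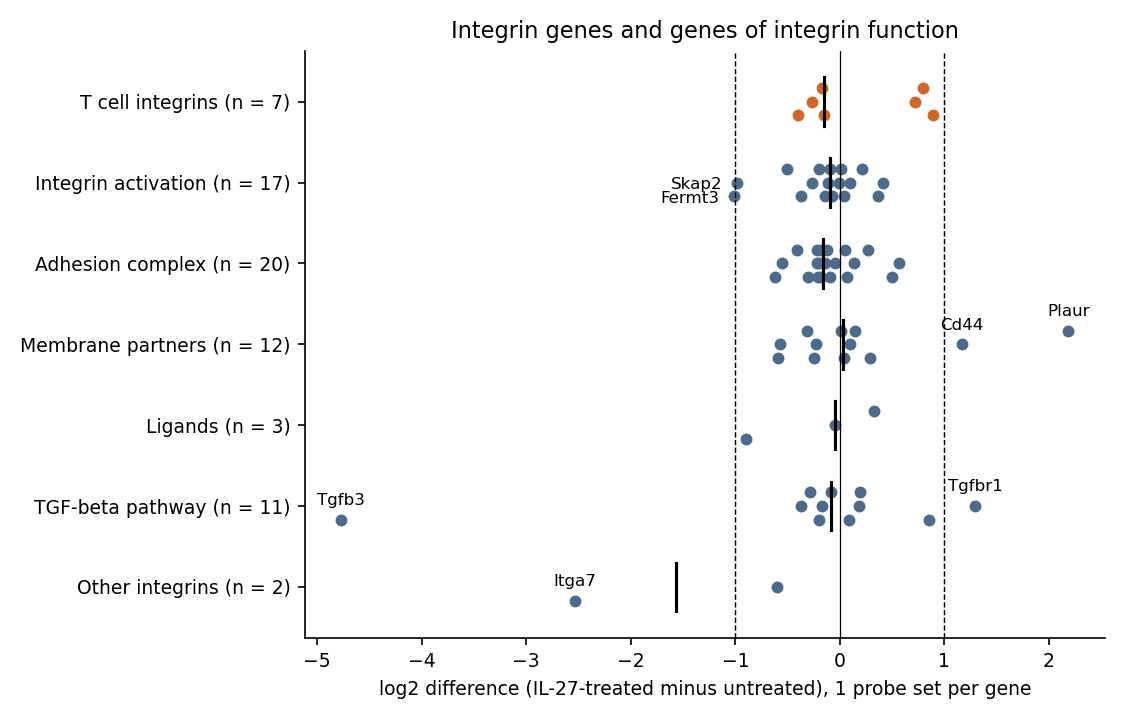
Log2 difference (IL-27-treated minus untreated) of each gene above background in the integrin group and in 6 related lists, 1 probe set per gene, with black bars at the medians and dashed lines at 2-fold. Among the integrins, Itgb1 and Itga6 lie at 0.79 and 0.89 and 4 genes between -0.40 and -0.15, while the point at 0.72 is Itga4, whose untreated value is below background. Genes near or beyond 2-fold are labelled. Points are differences as measured, also for Tgfb3, Plaur and both other integrins, Itga7 and Itga3, which were below background on 1 array and for which the text gives bounds.

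The arrays had nearly equal intensity distributions, with medians of 33.3 and 32.4 and a Pearson r of 0.989 across probe sets, which are not independent replicates. Markers of CD4+ T cells were present, with 11 of 11 measured above background and within 2-fold, Cd5 differing by -0.69, Zap70 by -0.38, Cd28 by -0.36 and Cd247 by -0.30. Their summed intensity was 22300 untreated and 20325 IL-27-treated. The myeloid list had 1 of 12 measured genes above background, Cd68, at 54.9 untreated and 27.5 IL-27-treated, at least 1.85-fold lower. Cd68 passed background on the untreated array alone, so the filter fixed its sign. Itgam, Itgax, Lyz2 and Cd14 were below background. The summed intensity of the myeloid list was 213.4 and 185.9. Since 11 of its 12 genes were below background, that sum does not measure myeloid content. All 8 B cell and all 7 stromal genes measured were below background. In the list of CD8+ T cell and NK cell genes, which activated CD4+ T cells can also express, 6 of 9 were above background. As measured, 1 was 2-fold or more higher and 4 lower, against 1.55% and 2.77% of all genes above background, also as measured. The 4 passed background on the untreated array alone, so the filter fixed their signs, and 3 of them were 2-fold lower where a bound is used. Eomes was 8.85-fold higher, and Prf1, Klrd1 and Klrk1 were at least 5.56-fold, 3.85-fold and 2.30-fold lower, with a second probe set of Prf1 below background on both arrays. Of the defining markers, Cd8a and Ncr1 were below background, and Cd8b1 was above it at 119.3 and 176.5, a difference of 0.57. Gzma had 34.3 untreated and was below background IL-27-treated, at least 1.16-fold lower. The list's summed intensity was 575.8 and 574.6, but it joins opposite changes and does not show equal content of CD8+ T cells and NK cells. Eomes went from 32.8 to 290.4, while Prf1 went from 164.9 to 17.8, Klrd1 from 114.2 to 16.4 and Klrk1 from 68.2 to 14.7. The part of such cells in the integrin differences was not tested.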

How the data were processed

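Per the labels' protocols, total RNA from cultured CD4+ T cells was labelled by the standard Affymetrix procedure from 100 ng, 1 array per group. The deposited intensities are on a linear scale, and per the submitters' processing notes they were made with RMA; no version or setting is given in these sources. RMA makes intensity distributions alike and compresses differences of dim probe sets.

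Values were put on a log2 scale with no pseudocount. The platform annotation gave 1 symbol for 18003 probe sets, which were used, several for 287 and none for 4426. The 10 integrin symbols matched RefSeq entries of GRCm38.p6 by Entrez identifier, with 0 symbols changed. A gene was read by its brightest probe set (mean log2 of both arrays). Background was the 95th percentile of 39 measured of 46 listed genes of other tissues, an intensity of 29.7. A gene below it on the dimmer array has a bound only, the brighter intensity over background.

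All integrin probe sets were named, with up to 4 genes per list that had the largest absolute difference and the other integrins above background. A few genes outside this rule are named for their role as a ligand, partner or marker of those described. The 10 members and the 13 lists (6 of integrin function, 6 of markers, 1 of other tissues) were chosen with earlier results of these data known. Of 11 alternatives, 2 were chosen after seeing these values. Calls were tried on simulated data, with planted changes larger than those of Itga6 and Itgb1 and only in genes well above background. That trial does not bear on differences near 2-fold, on dim genes or on variation between cultures. Python 3.11.15, numpy 2.4.6, pandas 2.3.3 and statsmodels 0.14.6 were used.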

Additional observations from a re-analysis of the deposited data

How the results depend on the processing

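Having 1 array per group limits every value, and no paired analysis was possible because the groups share no more than 1 replicate number and no test was run; leaving out a replicate was not possible for the same reason. The signs of the 8 integrin probe sets above background on both arrays held under median subtraction, loess normalization, the changed filters and the pseudocount of 16, with Itga6 between 0.81 and 0.93 and Itgb1 between 0.73 and 1.08. The count of integrin probe sets at least 2-fold higher was 1, and 0 with the pseudocount of 16. At a 1.5-fold threshold it was 5, including that of Itga4, whose untreated value was below background. With dim values raised to background as well, a combination chosen after seeing the data, it was 4. The share of all probe sets at 1.5-fold was not counted. The count of integrin genes at least 2-fold higher was 0. At the 1.5-fold threshold it was 3 of 7, against 347 of the 6637 genes above background. The 3 include Itga4, known only to be at least 1.10-fold higher. With dim values raised to background it was 2 of 10, Itga6 and Itgb1, against 320 of all 11807 genes. When probe sets with _a, _s or _x in their name were left out, 1 gene, Itgb1, was at least 2-fold higher. Fermt3, Itga7 and Plaur cannot be called with that restriction, because their probe sets above background carry such suffixes, and Fermt3 is not called with the pseudocount either. With loess normalization 2 genes of integrin activation were at least 2-fold lower in place of 1. With probe sets averaged per gene, Tgfbr1 is not called and Itgb1 differs by 0.40, since 3 dim probe sets enter the mean. The difference of Itga4, 0.72 as measured, was 0.14 with dim values raised to background and 0.44 with the pseudocount, and at 2 times the background level it was not above it. Over all genes, the calls numbered 103 higher and 184 lower, and 73 and 137 with the pseudocount, 347 and 485 at 1.5-fold. Leaving Tg out of the other-tissue list, also chosen after seeing the data, lowered background to 25.1 and left each integrin count as it was.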

Other observations

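Tg, which encodes thyroglobulin and was in the list of genes of other tissues, had intensities of 2199 untreated and 2341 IL-27-treated, far above the other 38 genes of that list, whose values did not exceed 36.4. It was read by 1 probe set, and its source was not tested.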
